A study of Mus musculus with 12 samples.

Results

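The immediate early genes described here are Fos, Fosb, Jun, Junb, Egr1, Egr2, Arc, Nr4a1, Dusp1 and Ier2, 10 of the 20892 genes that could be named on the arrays. They were taken as every non-control probe whose RefSeq identifier belonged to one of these genes, which gave 1 probe for each gene. Of the 10 genes 9 passed the filter on dim probes and were tested, as did 14333 named genes in all. Ier2 did not pass and is given by its values alone. The RNA came from differentiated neurospheres, which are clusters of neural progenitor cells grown in suspension, here from telencephalon dissected on day 13 of mouse gestation, and then left to attach to coated flasks and differentiate without growth factors. WT neurospheres came from wild-type C57BL/6 embryos and APP_WT neurospheres from untreated cultures of embryos of the APPswe/PS1dE9 line, which carries disease-linked transgenes directed to neurons of the central nervous system and is used as a model of Alzheimer's disease. BK_APP neurospheres were APPswe/PS1dE9 cultures that received 1 µM bradykinin (BK) on days 0, 3 and 6 of differentiation, and HOE_APP neurospheres received 1 µM HOE-140 on the same days. RNA of all groups was taken on day 7, so that 1 day separated the last dose from the measurement. No treated WT neurospheres were analysed here, and all treated cultures and their controls carried the transgenes. The question put to the data was whether activity-dependent genes differed between the groups at that time.

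Immediate early genes are transcribed within minutes of a stimulus, without the need for new protein, by factors such as SRF and CREB that are already present on their promoters. Their RNAs are short-lived and the response is transient, and in neurons they follow calcium entry and synaptic activity, which is why they serve as markers of active cells. BK is a peptide that acts through the B2 kinin receptor, which couples to Gq proteins, phospholipase C and calcium release, and HOE-140 is an antagonist of that receptor.

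Promoter sequences were available from RefSeq (GRCm38.p6) for 7 of the 10 genes, and the 250 bases before each annotated start were searched on both strands for 6 motifs. These were the CArG box bound by SRF, the full cAMP response element TGACGTCA, its core TGACG, the AP-1 sites TGAGTCA and TGACTCA, the EGR site GCGTGGGCG and the TATA box TATAAA. Each full element also holds overlapping cores. The core was present in 6 of the 7 genes, Fos, Fosb, Junb, Egr2, Nr4a1 and Dusp1, and in 17.8% of the 32851 promoters of the same length. The CArG box was present in Egr2 alone (1.47% of all promoters), the full element in Dusp1 alone (1.55%) and the TATA box in Fos alone (12.4%). AP-1 and EGR sites, held by 4.46% and 0.536% of all promoters, had no match in the 7 genes. For every motif, the CArG box included, a missing match says only that these letters are not in these windows. Bases farther upstream were not searched, and Egr1, Arc and Ier2 had no promoter sequence. A match is a description of the sequence and was not tested as a site of binding. The windows below are those of the genes to which the comparisons return, read 5′ to 3′ on the strand of the gene, with the motifs in capitals. The Fos window is the 140 bases before the start on the plus strand (chr12:85473750-85473889) and holds a pair of cores and the TATA box. The Egr2 window is a stretch of 30 bases on the plus strand (chr10:67537791-67537820), which spans positions −78 to −49 from 1 of 5 annotated starts and holds the CArG box and an inverted core. The Dusp1 window is the 200 bases before the start on the minus strand (chr17:26508473-26508672) and holds a core and the full element.
Fos: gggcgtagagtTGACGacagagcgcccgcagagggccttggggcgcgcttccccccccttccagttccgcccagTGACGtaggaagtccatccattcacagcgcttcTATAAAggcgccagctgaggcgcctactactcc
Egr2: ctcagtCCATATATGGgcagcgaCGTCAcg
Dusp1: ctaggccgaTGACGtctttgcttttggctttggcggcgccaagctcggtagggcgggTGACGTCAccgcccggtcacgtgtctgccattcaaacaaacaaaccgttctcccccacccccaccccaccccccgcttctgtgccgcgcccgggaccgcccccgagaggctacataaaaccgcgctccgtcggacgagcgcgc

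The neurospheres were compared on 12 2-color arrays, 4 for each of 3 comparisons (APP_WT compared to WT, and either BK_APP or HOE_APP compared to APP_WT), with dyes swapped between replicates 1 and 2 on one side and 3 and 4 on the other. Values are log2 ratios of the first-named over the second-named condition on each array, and a gene was called where its limma p, adjusted over all 29361 expressed probes by the method of Benjamini and Hochberg, was below 0.05. The probes of Fos, Jun, Egr1, Arc, Nr4a1 and Dusp1 were well above background in all 24 channels of the 12 arrays. The probes of Egr2 (19 of 24 channels), Fosb (16), Junb (12) and Ier2 (9) were dim, and the offset added at background correction draws the ratios of dim probes toward 0. No spot of the 10 probes was saturated. Fos was printed 10 times on each array, and the SD between these spots on one array was 0.06 to 0.10 on the log2 scale, while the other genes had 1 spot. For the HOE_APP arrays HOE-140 is given as the treatment of both channels, so the direction of every HOE_APP value below is likely only. It was taken from the first channel's labels, the titles and the dye layout, and the second channel's labels on their own would reverse all 4 arrays. The ratios the authors deposited run in the direction taken here on all 4 HOE_APP arrays (r across probes of 0.999 or higher). The APP_WT versus WT arrays lay on one slide and the other 8 on a second slide, so slide and comparison cannot be told apart. Each ratio was nonetheless formed within an array. After the ratios had been turned to one direction, arrays of opposite dye correlated between 0.243 and 0.463 across probes in APP_WT versus WT, but between −0.323 and −0.114 in BK_APP versus APP_WT and between −0.321 and −0.191 in HOE_APP versus APP_WT. Across probes the ratios of the treated arrays thus split by dye, and a dye coefficient was fitted in each comparison.

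In APP_WT compared to WT neurospheres, Egr1 fell and Egr2 rose, and the other 7 tested genes were not called. Egr1 encodes a zinc finger transcription factor induced by growth factors and by synaptic activity, and Egr2 (also called Krox20) a related factor known for its part in myelination and hindbrain patterning. The 2 calls among 9 genes stand beside a background of 18.5% of all expressed probes called in this comparison, 11.6% higher and 7.00% lower. The log2 fold changes of the 9 genes ran from −0.44 to 0.32 with a median of −0.05, against 0.00 for all probes, and 3 lay above 0 and 6 below. RNA was taken from whole neurospheres, so fewer cells of a type and less RNA per cell cannot be told apart. The ratios of all 10 genes on each array of the 3 comparisons are plotted by gene.

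**Figure D1:**
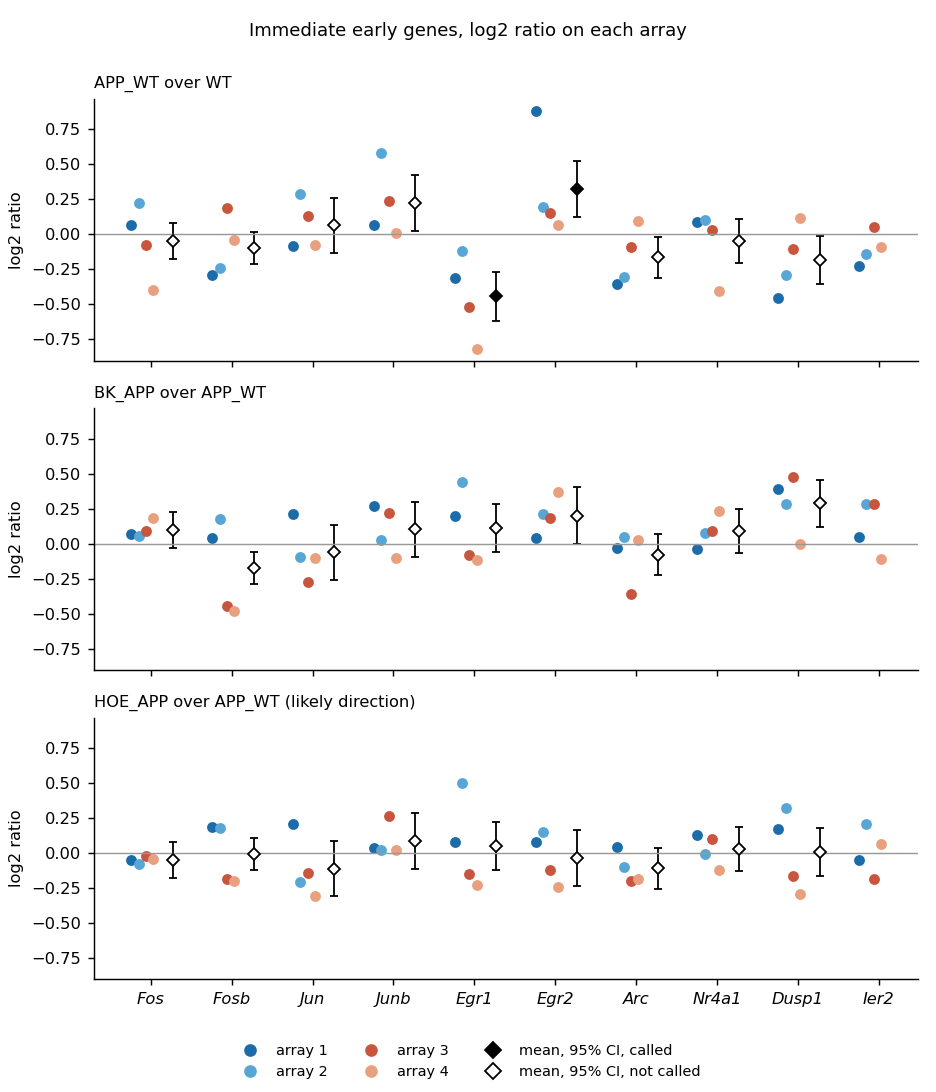
Log2 ratio of each immediate early gene (horizontal axis) on each of the 4 arrays of a comparison (colored points, blue for replicates 1 and 2 and red for the swapped dyes of replicates 3 and 4). Diamonds give the limma log2 fold change with its 95% confidence interval, filled where the adjusted p was below 0.05, which was the case for Egr1 (−0.44) and Egr2 (0.32) in APP_WT over WT alone, and Ier2, which was not tested, has points only.

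For Egr1 the log2 ratios of APP_WT over WT were −0.31, −0.12, −0.52 and −0.82 on replicates 1 to 4. All 4 arrays had less Egr1 RNA in APP_WT, and replicate 4 had the largest difference. The log2 fold change was −0.44 (SE 0.08, n = 4, 95% confidence interval −0.62 to −0.27, limma adjusted p = 0.00276), a ratio of 0.736. The log2 level in the separate channels was 9.07 ± 0.19 (SD, n = 4) in APP_WT and 9.51 ± 0.44 in WT. The ranges of both groups overlapped (8.93 to 9.33 and 9.21 to 10.15), and the highest level was that of the WT sample on replicate 4. Without that array the log2 fold change of Egr1 was −0.37 (limma adjusted p = 0.0283), and the gene was called in 15 of 15 other settings that altered this comparison.

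For Egr2 the log2 ratios were 0.88, 0.19, 0.15 and 0.06 on replicates 1 to 4. All lay above 0, but replicate 1 stood far above the others. On that array the log2 level was 7.84 in APP_WT and 6.96 in WT. The replicate 1 APP_WT channels beside BK_APP and HOE_APP had 7.02 and 6.93, so the high level was not seen there. The labels do not say whether these channels held the same sample. The log2 fold change was 0.32 (SE 0.09, n = 4, 95% confidence interval 0.12 to 0.53, limma adjusted p = 0.0323), a ratio of 1.25. The log2 level was 7.11 ± 0.52 (SD, n = 4) in APP_WT and 6.79 ± 0.26 in WT, and neither channel of replicate 2 was well above background. Without replicate 1 the value was 0.15 (limma adjusted p = 0.155) and the call was lost, as it was without replicate 3 (0.30, adjusted p = 0.129) and without replicate 4 (0.35, adjusted p = 0.0859). Egr2 was called in 4 of 14 other settings that altered this comparison, where each comparison and each slide fitted on its own are one and the same fit here. Its call is less secure than that of Egr1, as the plot of both genes under each setting shows.

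**Figure D2:**
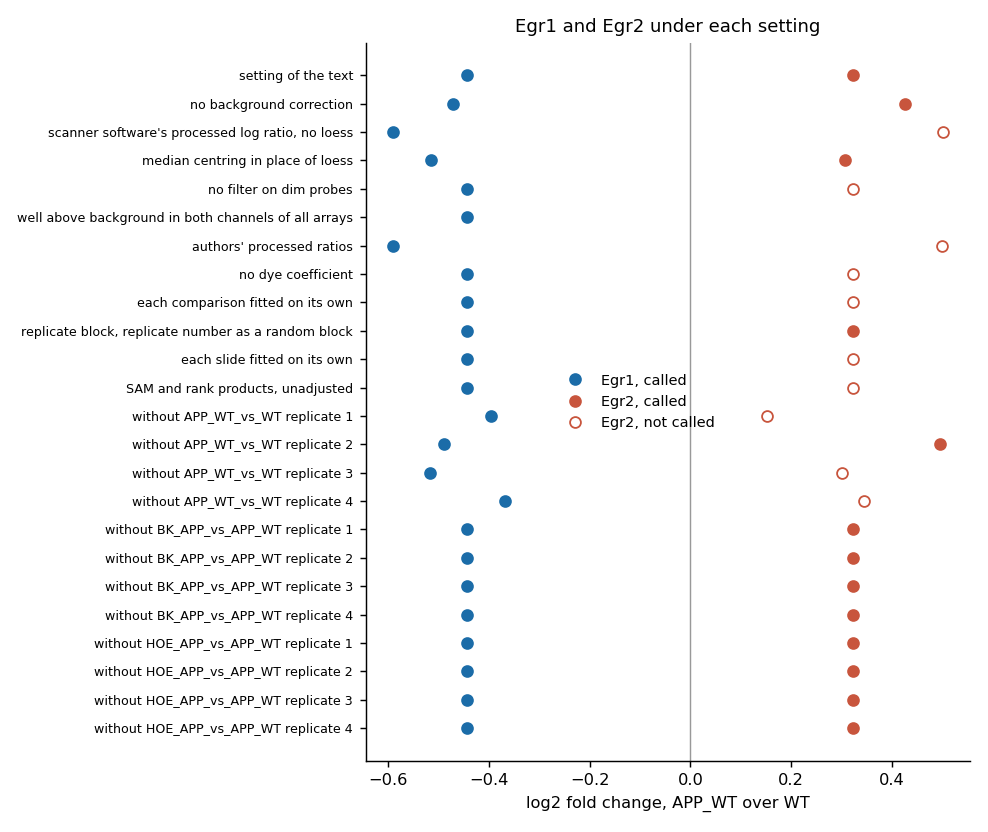
Log2 fold change of Egr1 (blue) and Egr2 (red) in APP_WT over WT (horizontal axis) under the setting of the text and each alternative (vertical axis), filled where the gene was called. Egr1 is filled in every row, between −0.59 and −0.37, while Egr2, between 0.15 and 0.50, is open in 10 rows, among them 3 of the 4 that leave out an APP_WT over WT array, and has no value under the strict filter.

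Fos, Fosb, Jun and Junb encode subunits of the AP-1 transcription factor, in which a Jun protein pairs with a Fos or another Jun protein. The log2 ratios of Fos in APP_WT over WT were 0.07, 0.22, −0.07 and −0.40. The arrays fell on both sides of 0, and the log2 fold change was −0.05 (95% confidence interval −0.17 to 0.08, limma adjusted p = 0.642). Those of Junb were 0.07, 0.58, 0.24 and 0.0064, all above 0, with a log2 fold change of 0.22 (SE 0.09, 95% confidence interval 0.02 to 0.42, limma adjusted p = 0.115). The Junb probe was well above background on 2 of 4 arrays in APP_WT and 1 of 4 in WT, and it passed the filter through the HOE_APP arrays. Fosb (−0.29, −0.24, 0.19 and −0.04) and Jun (−0.08, 0.29, 0.13 and −0.08) had arrays on both sides of 0, with limma adjusted p of 0.233 and 0.664. Junb was 0.09 without replicate 2, and was called without replicate 1 (0.35) and from the processed ratios of the scanner software (0.82), and Fosb from the ratios of the authors (−0.33).

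Arc, which encodes a cytoskeleton-associated protein of synapses that takes part in the removal of AMPA receptors, had log2 ratios of −0.36, −0.31, −0.09 and 0.09. Replicates 1 to 3 lay below 0 and replicate 4 above, and the log2 fold change was −0.16 (SE 0.07, 95% confidence interval −0.31 to −0.02, limma adjusted p = 0.110), which did not pass the threshold. From the processed ratios of the scanner software and from those of the authors it was −0.44 and was called. Dusp1, a phosphatase that switches off MAP kinases, showed the same order of arrays, with −0.45, −0.29, −0.11 and 0.12, and a log2 fold change of −0.18 (SE 0.08, 95% confidence interval −0.35 to −0.01, limma adjusted p = 0.133). Nr4a1, an orphan nuclear receptor, had 0.09, 0.10, 0.03 and −0.40, where replicate 4 was the only array below 0, and its adjusted p was 0.707. Ier2, a small nuclear protein, had −0.22, −0.14, 0.05 and −0.09. Counted at an unadjusted limma p below 0.05, 5 of the 9 genes differed (Junb and Egr2 higher, and Egr1, Arc and Dusp1 lower), where 31.8% of all probes did (17.9% higher and 13.9% lower). The same sign on all 4 arrays was seen in 3 of the 9 genes, Junb, Egr1 and Egr2, and in 26.9% of all probes (15.1% above 0 and 11.9% below).

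The WT sample on replicate 4 stood out in several of these genes. Its log2 level was 10.15 for Egr1, where the other WT samples had 9.21 to 9.44. For Nr4a1 it was 10.42 against 9.67 to 9.91, and for Fos 9.73 against 8.98 to 9.26. Dusp1 (9.23, where the others had 8.98 to 9.34) and Arc (8.22, where the others had 8.22 to 8.76) did not stand out there. Across the 12 arrays the ratios of Fos and Nr4a1 were the most alike of the 36 pairs of tested genes (Pearson r = 0.804, and 0.823 after the mean of each comparison had been taken off, with the fitted dye effect removed in both), while the median over all pairs was 0.04. They are descriptions over 12 arrays that may share APP_WT samples, and no test was made of them.

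Cell type markers differed between the same groups, beside 17% higher and 8.02% lower among all 14333 named genes. Of 12 tested markers of microglia and macrophages 11 rose in APP_WT, among them Aif1 (2.21) and C1qc (2.07), which were well above background on all 4 WT arrays. Another 6 of the 12 were well above background on at most 2 WT arrays, so their fold changes are limited by the background in WT and no median is given. The summed linear level of the 12 was 13960 to 18060 in APP_WT and 9735 to 11900 in WT. Of the defining microglial markers P2ry12 was well above background in 1 of 24 channels, and Tmem119 (0.57) on 1 of 4 arrays in WT and 4 of 4 in APP_WT. The macrophage marker Adgre1 was well above background on 0 of 4 arrays in WT and 4 of 4 in APP_WT. Of 8 astrocyte markers 7 rose, led by Aqp4 (0.73) and Gfap (0.69), with a median of 0.37 (summed level 135800 to 150400 against 98390 to 120600). Of 15 neuron markers, each well above background on at least 3 of 4 WT arrays, 4 rose and 4 fell, with the neurofilament genes Nefm (−0.79) and Nefl (−0.73) and the glutamate transporter gene Slc17a7 (0.58) at the smallest p (median 0.03, summed level 120800 to 141900 against 130200 to 150100). Of 7 progenitor markers 2 rose and 2 fell, and of 9 oligodendrocyte markers 1 rose and 1 fell. Of 7 tested genes in the vascular list, among them the matrix genes Col1a1, Col1a2, Dcn and Lum, 1 rose and 3 fell. Cldn5, Cdh5 and Rgs5 of that list did not pass the filter. Among 6 markers of cycling cells 0 were called. The part of these cell types in the values of Egr1 and Egr2 was not tested. Prnp, whose promoter drives the transgenes, had a log2 fold change of 0.75 (limma adjusted p = 0.00581), with an SD of 0.57 between arrays. App had 0.12 (limma adjusted p = 0.0925) and was not called. Whether either probe reads RNA of the transgenes was not tested.

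In BK_APP compared to APP_WT neurospheres, 0 of the 9 genes were called by limma, and 0% of all 29361 probes were. The adjusted p was 0.967 to 0.973. At an unadjusted limma p below 0.05, Dusp1 (higher) and Fosb (lower) differed, 2 of 9 genes where 4.47% of all probes did (2.10% higher and 2.36% lower). By the methods of the study, SAM (significance analysis of microarrays) together with rank products at an unadjusted threshold of 0.05, Dusp1 and Egr2 were called, where 1.82% of all probes were. The median log2 fold change of the 9 genes was 0.10, with 6 genes above 0 and 3 below. The 95% confidence intervals of all 9 lay between −0.29 and 0.46 on the log2 scale.

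For Dusp1 the log2 ratios of BK_APP over APP_WT were 0.39, 0.28, 0.48 and −0.0012 on replicates 1 to 4. Replicates 1 to 3 lay above 0 and replicate 4 at 0. The log2 fold change was 0.29 (SE 0.08, n = 4, 95% confidence interval 0.12 to 0.46, limma adjusted p = 0.967), a ratio of 1.22. It was 0.17 without replicate 3 and 0.41 without replicate 4. The log2 level was 9.16 ± 0.14 (SD, n = 4) in BK_APP and 8.88 ± 0.30 in APP_WT, with ranges that overlapped (9.05 to 9.36 and 8.59 to 9.18). Of all probes 0.412% had a larger absolute log2 fold change in this comparison.

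For Egr2 the log2 ratios were 0.04, 0.21, 0.18 and 0.37, all above 0 and of small size on replicate 1. Neither channel of replicate 4 was well above background, nor was the APP_WT channel of replicate 2. The log2 fold change was 0.20 (SE 0.09, 95% confidence interval −0.0021 to 0.40, limma adjusted p = 0.967). Fos had 0.07, 0.05, 0.09 and 0.19, which were also all above 0 and close together, with a log2 fold change of 0.10 (SE 0.06, 95% confidence interval −0.03 to 0.23, limma adjusted p = 0.967). Egr2 and Fos were the 2 of 9 genes with the same sign on all 4 arrays, as were 9.64% of all probes (5.06% above 0 and 4.58% below).

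Fosb split by dye. Its log2 ratios of BK_APP over APP_WT were 0.04, 0.18, −0.44 and −0.48. Both arrays with BK_APP in Cy5 thus lay above 0 and both with BK_APP in Cy3 below. On both arrays below 0 the BK_APP spot of Fosb was not well above background. The log2 fold change was −0.18 (SE 0.05, 95% confidence interval −0.29 to −0.06, limma adjusted p = 0.967), smaller in size than the dye coefficient of 0.29. Egr1 split in the same way, with 0.20, 0.44, −0.08 and −0.12 and a dye coefficient of 0.21. Its log2 fold change was 0.11 (95% confidence interval −0.06 to 0.28), and ran from 0.05 to 0.17 over 23 settings. Jun (0.21, −0.09, −0.27 and −0.10), Junb (0.27, 0.03, 0.22 and −0.10), Arc (−0.03, 0.05, −0.36 and 0.03) and Nr4a1 (−0.04, 0.08, 0.09 and 0.23) had arrays on both sides of 0, with limma adjusted p of 0.967 to 0.973. Ier2 had 0.04, 0.28, 0.28 and −0.11, and was not well above background in the APP_WT channel of any of the 4 arrays.

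In HOE_APP compared to APP_WT neurospheres, 0 of the 9 genes were called by limma, 0 at an unadjusted p below 0.05 and 0 by SAM and rank products. Among all probes these shares were 0%, 5.03% (2.31% higher and 2.72% lower) and 2.30%. In the likely direction the log2 fold changes ran from −0.11 to 0.09, with a median of −0.01, and all 95% confidence intervals lay between −0.31 and 0.28. Turning the sign, as the labels of the second channel would have it, changes none of these sizes. The limma adjusted p was 0.924 to 0.995.

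The ratios of Fos in HOE_APP over APP_WT were −0.05, −0.08, −0.02 and −0.04 on the log2 scale. All 4 lay just below 0, with a log2 fold change of −0.05 (SE 0.06, 95% confidence interval −0.17 to 0.08, adjusted p = 0.961). Junb had 0.04, 0.02, 0.27 and 0.02, all above 0, and replicate 3 stood apart from 3 arrays near 0. Its log2 fold change was 0.09 (SE 0.09, limma adjusted p = 0.946), and ran from 0.03 to 0.16 over 21 settings. Fos and Junb were the 2 genes with one sign on all 4 arrays, where 10.6% of all probes had one (5.66% above 0 and 4.98% below). Fosb (0.18, 0.18, −0.19 and −0.20), Egr1 (0.08, 0.50, −0.15 and −0.23), Egr2 (0.08, 0.15, −0.12 and −0.24) and Dusp1 (0.17, 0.32, −0.17 and −0.29) were above 0 on replicates 1 and 2 and below 0 on replicates 3 and 4, the arrays of the swapped dyes. Their dye coefficients were 0.15 to 0.24 and their log2 fold changes −0.04 to 0.05. Jun (0.21, −0.21, −0.14 and −0.31), Arc (0.05, −0.10, −0.20 and −0.19) and Nr4a1 (0.13, −0.0060, 0.10 and −0.12) showed no such split, with limma adjusted p of 0.924 to 0.985. Ier2 had −0.05, 0.21, −0.19 and 0.07.

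The levels of 4 genes in the channels of each array show how far the groups overlap. Egr1 had a log2 level of 9.51 ± 0.44 (SD, n = 4) in WT, 9.19 ± 0.27 in BK_APP and 9.11 ± 0.33 in HOE_APP, and in APP_WT 9.07 ± 0.19, 9.08 ± 0.25 and 9.06 ± 0.17 beside WT, BK_APP and HOE_APP. Within arrays only the step between WT and APP_WT was called, and with the HOE_APP sign turned the levels of HOE_APP and of the APP_WT beside it would change places. The channel levels of the groups overlapped in all 10 genes and all 3 comparisons, so that 0 were fully apart, where 10.8% of all probes were in APP_WT versus WT, 0.851% in BK_APP versus APP_WT and 0.964% in HOE_APP versus APP_WT. The APP_WT levels of same-numbered arrays lay closer together than those of other numbers. Over the 9 tested genes and the 3 comparisons the median absolute difference was 0.08 for the same number, 0.19 for another number with the same dye and 0.16 for another number with the other dye, on the log2 scale. The largest differences were 0.91, 0.97 and 1.08 in the same order. The labels do not say whether one APP_WT culture was hybridized in all 3 comparisons under a number.

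**Figure D3:**
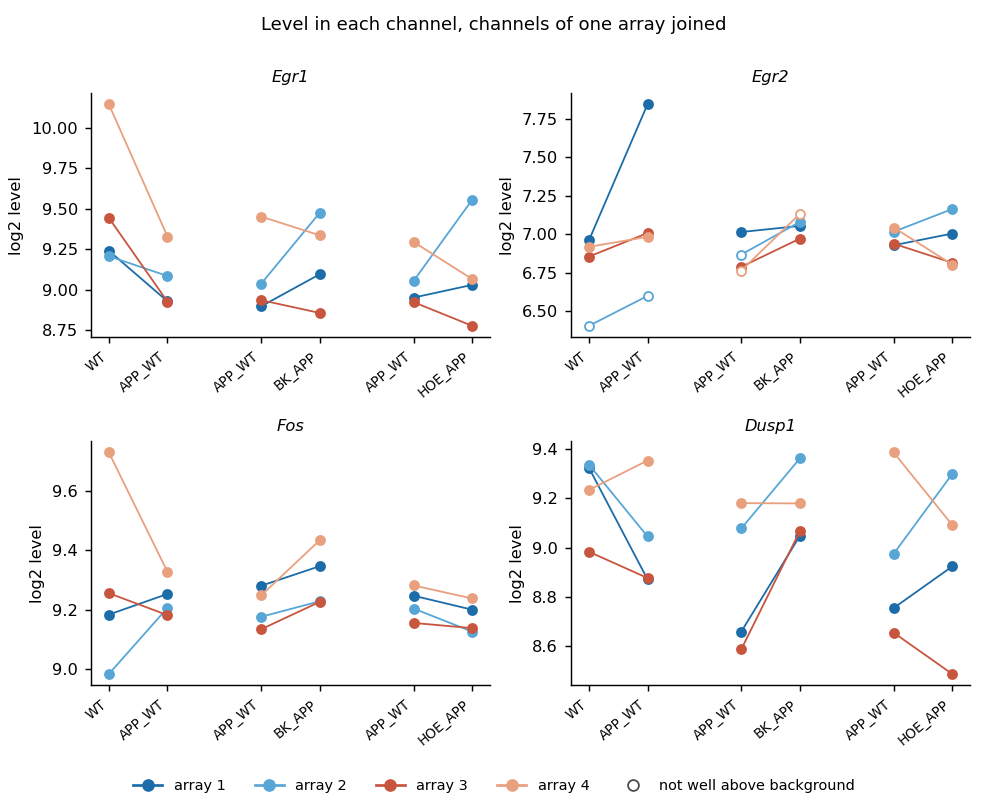
Log2 level (vertical axis, normalized channel intensity) of Egr1, Egr2, Fos and Dusp1 in the conditions of each comparison (horizontal axis), with the channels of one array joined and open circles for spots not well above background. All 4 Egr1 lines fall from WT to APP_WT, from a WT level of 10.15 on replicate 4, and 3 of the 4 Dusp1 lines rise from APP_WT to BK_APP, while the levels of no pair of groups are fully apart.

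The difference between the treatments was tested in the same model, as BK_APP minus HOE_APP. None of the 9 genes was called, 0 of 9, and neither was any of the 29361 probes (0%). At an unadjusted limma p below 0.05, Fosb (lower with BK) and Dusp1 (higher) differed, where 2.50% of all probes did (1.20% higher and 1.29% lower), and SAM with rank products called the same 2 genes, where 5.44% of all probes were called. Since same-numbered BK_APP and HOE_APP arrays deviated together, they were also fitted as pairs, which cancels the dye. Here again 0 of 9 genes and 0% of probes were called, with 4 of 9 genes at an unadjusted limma p below 0.05 (3 higher and 1 lower) where 7.86% of all probes were (4.35% higher and 3.51% lower). In 8 of the 9 genes the difference was above 0, as in 48.7% of all probes, with a median of 0.06. With the HOE_APP sign turned 6 of 9 genes would be above 0, and 48.4% of all probes.

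The differences of Fos between same-numbered arrays were 0.11, 0.13, 0.11 and 0.23. All 4 were above 0, since the BK_APP ratios were all above and the HOE_APP ratios all below 0. The mean was 0.15 (SE 0.05 in the paired fit, 95% confidence interval 0.02 to 0.27, limma adjusted p = 0.583), and without pairs the interval was −0.04 to 0.33. Among all probes 16.6% had one sign in all 4 pairs (8.44% above 0 and 8.20% below), and of the 9 genes Fos alone did. If the HOE_APP sign were turned, the 4 differences of Fos would be 0.02, −0.03, 0.07 and 0.14, with a mean of 0.05 and no common sign. Egr2 and Nr4a1 would then be the 2 genes with one sign in all 4 pairs, where 8.34% of all probes would have one.

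For Dusp1 the paired differences were 0.22, −0.04, 0.65 and 0.29, with a mean of 0.28 (95% confidence interval 0.05 to 0.51, limma adjusted p = 0.577). Without replicate 3 or replicate 4 of BK_APP the unpaired difference was 0.16 or 0.40. Those of Egr2 were −0.04, 0.06, 0.31 and 0.61, which spread widely around a mean of 0.24 (95% confidence interval 0.0055 to 0.47, limma adjusted p = 0.622). Those of Fosb were −0.14, 0.0015, −0.26 and −0.28, with a mean of −0.17 (95% confidence interval −0.32 to −0.02, limma adjusted p = 0.584). Spots not well above background, in a treated or an APP_WT channel, entered the replicate 2 and replicate 4 differences of Egr2 and all 4 differences of Fosb. In the unpaired contrast the 95% confidence intervals of the 9 genes lay between −0.33 and 0.52, and the limma adjusted p of all 9 was 1.00.

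**Figure D4:**
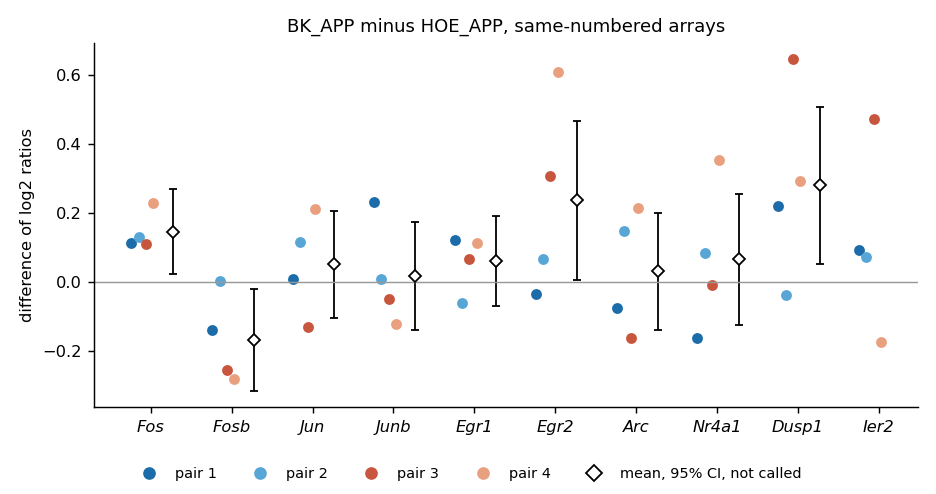
Difference of the log2 ratios of same-numbered BK_APP and HOE_APP arrays (vertical axis, likely direction for HOE_APP) for each gene, with the mean and its 95% confidence interval from the paired limma fit as open diamonds. The 4 points of Fos lie between 0.11 and 0.23, those of Dusp1 and Egr2 spread from just below 0 to 0.65 and 0.61, and no gene was called after adjustment.

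Other genes of the pathway were taken from lists of other rapid primary response genes, of neuronal late response genes, of upstream regulators, of ERK feedback genes, of heat shock genes and of kinin signaling. In APP_WT compared to WT, 10 of 34 tested other immediate early genes rose and 6 fell, beside 17% higher and 8.02% lower among 14333 named genes, and the median log2 fold change was 0.14 against 0.01. Atf3, a stress-induced factor, rose by 0.95 (SE 0.07, limma adjusted p = 6.76e-06). Maff (0.57), Ier3 (0.54), Jund (0.43), the AP-1 subunit that is expressed without stimulus, and the growth arrest gene Gadd45b (0.33) also rose. Npas4, a factor induced by calcium in neurons, fell by 0.37 (SE 0.06, limma adjusted p = 0.00124), and Ier5 (−0.34) and Nfil3 (−0.28) fell as well. Egr3, Nr4a3, Zfp36, Ptgs2 and Dusp5 did not pass the filter and had no test. The count of called genes in this list ran from 8 to 19 over 22 settings.

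Among 15 late response genes, which neurons express hours after activity, 5 rose and 2 fell (median 0.09). The neuropeptide genes Sst (0.81, limma adjusted p = 3.73e-06) and Penk (0.54) rose, as did Rasgrp1 (0.75), Nrn1 (0.44) and Crem (0.35), and Scg2 (−0.48) and Inhba (−0.30) fell. Of 31 kinases and transcription factors upstream of the genes 6 rose and 1 fell (median 0.05), among them Mrtfb (0.39), a partner of SRF, the kinases Rps6ka1 (0.38), Mapk3 (0.32, also called ERK1), Camk2a (0.27) and Map2k1 (0.19), and the calcineurin subunit Ppp3ca (0.20). Mapk8 (JNK1) fell by 0.26, but another of its probes had the opposite sign. Of 13 ERK feedback genes Etv5 (0.34) and Etv4 (0.19) rose and Etv1 (−0.49) fell. Of 10 heat shock genes Hspb1 (0.60) and Bag3 (0.43) rose and Dnaja1 (−0.19) fell. In the kinin list Plcb3 (0.19), a phospholipase C, rose, and the phospholipase Plcb1 (−0.30) and the calcium channel Itpr1 (−0.22) fell, 3 of 8 tested genes. Each of these counts stands beside the same 17% higher and 8.02% lower among all named genes, and those of the upstream regulators, ERK feedback and heat shock genes lay near it. Over 22 settings the count of called genes ran from 7 to 8 for the late response genes, 3 to 9 for the regulators, 2 to 3 for ERK feedback, 2 to 4 for heat shock and 0 to 3 for the kinin list. No kinin gene was called without replicate 4, nor with this comparison fitted on its own.

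**Figure D5:**
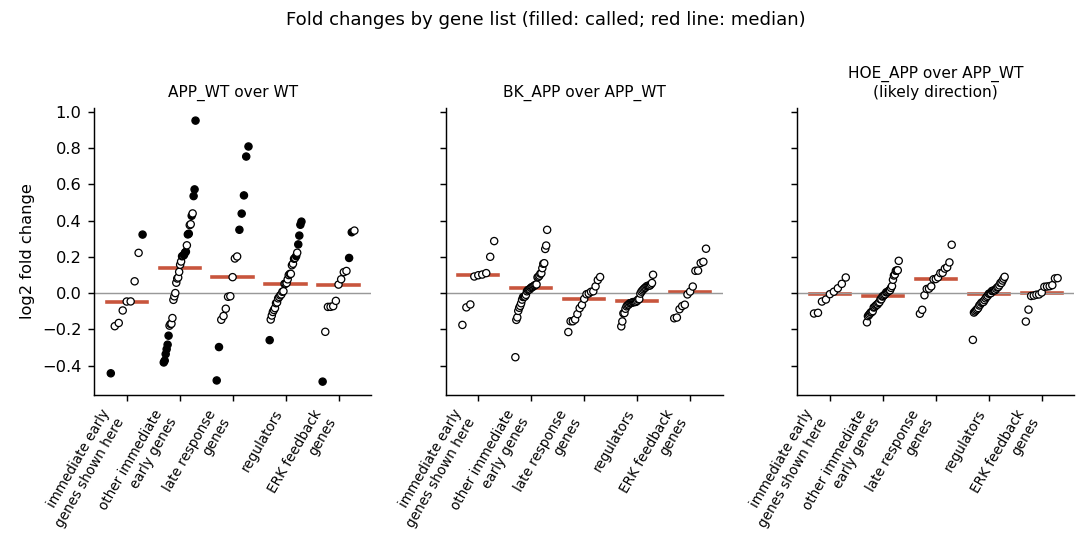
Log2 fold change (vertical axis) of every tested gene of 5 gene lists (horizontal axis) in the 3 comparisons, filled where the gene was called, with the median of each list as a red line. In APP_WT over WT the 9 immediate early genes of the text have a median of −0.05 and the other immediate early genes one of 0.14, and in BK_APP and HOE_APP over APP_WT no gene is filled.

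The probes of the kinin receptor genes Bdkrb1 and Bdkrb2, 1 for each, were well above background in 0 of 24 channels, so neither RNA could be measured here. With 1 probe for each gene, little RNA and a weak probe cannot be told apart, and receptor protein was not measured. In BK_APP and HOE_APP compared to APP_WT, limma called 0 genes of the 6 lists in the setting of the text. Without replicate 1 of BK_APP, 1 of the 34 other immediate early genes was called lower, where 0.211% of all probes were called. SAM with rank products called 3 of the other immediate early genes higher, 1 late response gene lower and 1 ERK feedback gene higher in BK_APP, where 1.82% of all probes were called. In HOE_APP it called 1 other immediate early gene lower, 2 late response genes higher and 1 heat shock gene lower, where 2.30% of all probes were called. In BK_APP minus HOE_APP it called 7 other immediate early genes (6 higher and 1 lower), 3 late response genes lower, 2 regulators (1 higher and 1 lower) and 1 heat shock gene higher, where 5.44% of all probes were called. The genes given next are the 2 of each list with the smallest limma p, and each was above the threshold after adjustment. Among other immediate early genes they were Ier3 (0.26, SE 0.08) and Gadd45b (0.16) in BK_APP, and Klf10 (−0.16, SE 0.06) and Klf2 (0.18) in HOE_APP. In the ERK feedback list Etv4 had 0.17 and Dusp6, a phosphatase of ERK, had 0.25 in BK_APP (limma adjusted p = 0.967 for both), and Etv1 had −0.16 and Phlda1 −0.09 in HOE_APP. In the late response list they were Rasgrp1 (−0.21) and Penk (−0.16) in BK_APP, and Tac1 (0.27) and Sst (0.17) in HOE_APP. Among the regulators they were Mef2c (−0.16) and Camk2b (−0.11) in BK_APP, and Elk1 (−0.26) and Ppp3ca (−0.09) in HOE_APP. Elk1 lay above 0 on 2 of the 4 HOE_APP arrays, and its other probe had the opposite sign. Among heat shock genes Hspb1 had −0.26 and Dnaja1 0.09 in HOE_APP, with Hspb1 below 0 on all 4 arrays, and Bag3 had −0.05 and Dnaja1 0.04 in BK_APP. In the kinin list Plcb1 had −0.16 and Plcb3 0.11 in BK_APP, and Itpr1 had 0.11 and Plcb4 −0.18 in HOE_APP. Median log2 fold changes of the other immediate early genes were 0.03 in BK_APP and −0.02 in HOE_APP, where those of the 9 genes of the text were 0.10 and −0.01. In the treated comparisons 0 cell type markers were called. The microglial markers had a median of 0.16 in BK_APP (summed level 15220 to 16920 against 13520 to 17410 in APP_WT) and −0.08 in HOE_APP (11540 to 15550 against 13180 to 17760), and neuron markers one of −0.12 and −0.01. In BK_APP minus HOE_APP, in the likely direction of HOE_APP, all 12 microglial markers lay above 0 (median 0.24). All 15 neuron markers lay below 0 there (median −0.13), and 0 markers of these 2 lists were called. The part of these shifts in the values of the immediate early genes was not tested.

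Genes whose ratios were most like the mean of the 9 tested immediate early genes over the 12 arrays, each gene scaled to its own spread and the dye taken off, were Tigd5 (Pearson r = 0.927), Rnf111 (0.909), Atg4c (0.888) and Pfkfb3 (0.872). They were among the highest of 13966 named genes in no list, and the 12 arrays share dyes and may share APP_WT samples, so these values are a description only.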

How the data were processed

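RNA was measured on 12 2-color Agilent mouse arrays. The authors deposited Agilent Feature Extraction files for all arrays (version 11.0.1.1 per the file headers), with the median intensity of each spot and its background in both channels, not normalized, and a log10 ratio of signals that the software had background-subtracted and dye-normalized. They also deposited a table of log2 ratios, which correlated with the software's ratios (r of 0.999 or higher), with medians of −0.155 to 0.036. Here the intensities were corrected by normexp (offset 50) and loess (span 0.3) in limma 3.58.1 (R 4.3.3), 3671 control spots among 62976 were removed, and repeated spots were averaged to 55681 probes. A probe was kept if, in some comparison, 3 or more of the 4 arrays had it well above background for the same condition (29361 probes). A single limma model of the 12 arrays fitted every comparison's mean together with its dye effect (6 coefficients, which left 6 residual degrees of freedom beside 4.56 prior ones), and its standard errors rest on a spread shared by the 3 comparisons. Tests were two-sided, and the scripts were tested on simulated data. Groups came from the sample labels, and 461 expressed probes lacked a value on some array. The arrays give intensities and no read depth, and their number, 4 per comparison, limits the precision. The study's methods call the replicates independent, while the labels name no embryos or litters, so p-values measure the spread between these samples.

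The replicate numbers paired the treated arrays. Deviations from the group means correlated between 0.515 and 0.672 across probes for same-numbered BK_APP and HOE_APP arrays. Differences between numbers of one dye orientation, in the APP_WT channels alone, correlated between 0.284 and 0.611 from one comparison to another. Genes were named through RefSeq (27509 of 29150 probes with such an identifier) and represented by the probe with the highest mean intensity. From each pathway list up to 8 called genes with the smallest p are named, or the 2 with the smallest p where fewer than 2 were called. This rule was set for the cell type markers and for BK_APP minus HOE_APP as well. There, counts or medians of some lists are given and few or no genes are named. The genes and lists were chosen with earlier results of these data known. Alternatives changed the background correction, normalization, filter, model, test and arrays used. Some items are not reported here.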

Additional observations from a re-analysis of the deposited data

Results flagged for a closer look

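In the 30 sets of 4 arrays (10 genes in 3 comparisons), 3 values lay farther from the nearest other array than the critical value for 4 samples allows, where chance gives about 1 in 20. Egr2 on replicate 1 of APP_WT versus WT had a log2 ratio of 0.88, with a gap of 0.842 of the whole range. Nr4a1 on replicate 4 of APP_WT versus WT had −0.40 (gap 0.855), the array whose WT sample also had the highest levels of Egr1 and Fos. Junb on replicate 3 of HOE_APP versus APP_WT had 0.27 (gap 0.930), from a probe that was well above background in 12 of 24 channels.

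Fos lay above 0 on all 4 BK_APP arrays and below 0 on all 4 HOE_APP arrays, in the likely direction of the latter. BK_APP minus HOE_APP was 0.15 on the log2 scale, with a limma adjusted p of 1.00 without pairs and 0.583 with same-numbered arrays paired, so the difference did not pass the threshold.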

How the results depend on the processing

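In APP_WT versus WT the count of called genes was 2 of 9, beside 18.5% of all probes. It became 1 (Egr1) in the settings given next with their share of probes called. Without a filter on dim probes 10 genes were tested (7.66%). With a filter that asked for both channels of all arrays 6 were tested, without Egr2 (23.3%). The others were no dye coefficient (13%), each comparison or each slide fitted on its own (8.08%), and SAM and rank products (12%). Leaving out 1 array gave 1 to 2 called genes, beside 12.8% to 18.9% of all probes. Egr1 alone was called without replicate 3 or replicate 4, and Junb (0.35, limma adjusted p = 0.0190) stood in place of Egr2 without replicate 1. Egr1 ran from −0.59 to −0.37 (adjusted p 0.000937 to 0.0334) and Egr2 from 0.15 to 0.50 (0.000729 to 0.161). From the software's processed ratios 3 of 9 genes were called (Junb 0.82, Egr1 and Arc −0.44), where 26.7% of all probes were. From the authors' ratios 3 of 8 tested genes were called (Fosb −0.33, Egr1 and Arc), where 29.1% of 25810 probes were. SAM and rank products called 2 genes in BK_APP versus APP_WT and 2 in BK_APP minus HOE_APP, where limma called 0 in every setting, and 0 in HOE_APP versus APP_WT. With the replicate number as a block the counts were 2, 0, 0 and 0, as in the text, and pairing same-numbered BK_APP and HOE_APP arrays, added after the data had been seen, changed no call. Turning the HOE_APP sign, also added then, gave 0 called genes as well. No called gene changed sign. BK_APP minus HOE_APP has no value with each comparison on its own. The cause of these shifts was not tested. Over all probes, 5446 were called in APP_WT versus WT in the text's setting, 2371 with that comparison fitted on its own and 7832 from the processed ratios. Dim probes (Fosb, Junb, Egr2, Ier2) are the least secure.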
